A study of Mus musculus with 10 samples.

Results

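The genes described here are those of the translation initiation factors, taken as all probe sets of the array whose single annotated symbol starts with Eif, without the X- and Y-linked pair Eif2s3x and Eif2s3y. The rule found 99 probe sets of 40 genes among 22626 probe sets of 12393 genes. After probe sets of low signal were left out, 77 probe sets of 37 genes could be tested, among 13576 probe sets of 8148 genes. The genes that were not tested were Eif2ak2 and Eif2ak4, kinases of eIF2, and Eif4ebp1, an inhibitor of the cap-binding protein eIF4E. Another 5 probe sets carried an Eif symbol together with other symbols, those of Eif3j1, Eif3j2, Eif4a3 and 1 of Eif1a, and were not used. No member probe set stood for Eif1, Eif2s1, Eif2b3, Eif3g or Eif4g1, so the complexes described below are not complete. Total RNA of brain from C57BL/6 mice, an inbred laboratory strain, was hybridised to 1 Affymetrix MOE430A array per sample. The groups were 1 week of age labelled female (n = 3), 1 week labelled male (n = 3), 8 weeks labelled female (n = 2) and 8 weeks labelled male (n = 2). The labels name no mutation or treatment and do not say whether the numbered brains came from separate animals, so p-values measure the spread between these samples.

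Initiation is the step at which a ribosome is placed on the start codon of a messenger RNA. The factor eIF2 brings the initiator tRNA, eIF3 holds the small ribosomal subunit, eIF4F binds the cap and unwinds the leader, and eIF5 and eIF5B lead to joining of the large subunit. The exchange factor eIF2B reloads eIF2 with GTP, and kinases that phosphorylate eIF2 slow this reloading when cells are stressed. In brain, control of initiation through eIF2 and eIF4E is known for its part in synaptic plasticity, and mutations in eIF2B cause a disease of white matter.

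Levels are normalized intensities, and a change is the difference of log2(intensity + 24) between 8 weeks and 1 week with its SE. The arrays correlated at 0.973 to 0.981 within groups and at 0.933 to 0.951 between ages, and no 2 arrays held identical values. On the X-linked RNA Xist and the Y-linked gene Eif2s3y, 4 of the 6 arrays at 1 week opposed their sex label, which were females 1 and 2 and males 2 and 3 by label, and number 3 labelled female gave signal for both. Alb, the albumin gene of liver, read above 2000 in 3 arrays, those numbered 2 of both sex labels at 1 week and of the female label at 8 weeks, and from 70.8 to 888 in the other 7. Of 6 tested neuron genes (7 listed) 3 were higher at 8 weeks, 2 lower and 1 did not pass, with summed levels of 14253 to 15641 at 1 week and 13662 to 14285 at 8 weeks. Of 8 listed genes of immature neurons all 8 were lower at 8 weeks, and their summed level ran from 18798 to 22105 at 1 week and from 4775 to 5947 at 8 weeks. Of 6 tested genes of dividing cells (12 listed) all 6 were lower, with sums of 1698 to 2385 and 633 to 737. Of 6 tested myelin genes (8 listed) 5 were higher and 1 did not pass, with sums of 2275 to 10492 at 1 week and 13397 to 17268 at 8 weeks. Of 5 microglia genes all 5 were higher, with sums of 1942 to 2318 and 2599 to 3547, and of 6 astrocyte genes 2 were higher and 4 did not pass, with sums of 4567 to 6361 and 7261 to 7987. In whole brain, fewer cells of a type and less RNA per cell cannot be told apart, and the part of these shifts in the results below was not tested.

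The comparison of 8 weeks with 1 week asked how initiation factor transcripts differ between growing and adult brain. Of the 37 genes, 17 fell, 2 rose and 18 did not pass, with each gene read by its brightest probe set. The largest falls were those of Eif1ax (-0.97 ± 0.11), which scans for the start codon, Eif3l (-0.83 ± 0.09), an eIF3 subunit, and Eif4a1 (-0.80 ± 0.08), the helicase of eIF4F. The genes that rose were Eif4a2 (0.46 ± 0.07), the paralog of Eif4a1, and Eif2ak3 (0.32 ± 0.09), an eIF2 kinase of the endoplasmic reticulum. Among all 8148 genes tested, 24% were called lower, 21.9% higher and 45.9% in all, beside 45.9%, 5.41% and 51.4% of the initiation factor genes. The median change was -0.17 over the 37 genes and -0.0198 over all genes, whose middle range ran from -0.26 to 0.24. The ages did not overlap in 15 of the 37 genes, 40.5%, beside 35.9% of all genes. By probe set, 33 of 77 fell and 4 rose, beside 24% and 22% of all probe sets.

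The count of falls depended on the scale between arrays. With each array scaled to its spike-in controls, 3 of the 37 genes were lower, beside 8.65% of all probe sets, and on the deposited values, whose median change over all probe sets was 0.47, 1 gene was lower and 18 were higher, beside 4.63% and 63.9% of all probe sets. Of the 24 genes with a negative change, 19 turned positive on the deposited values and 6 with spike-in scaling. As deposited, every array at 8 weeks was brighter than every array at 1 week (trimmed means 256 to 319 and 139 to 237). Directions below are therefore relative to the whole distribution of intensities. Without the 4 arrays that opposed their sex label 9 genes fell and 1 rose, with the calls of Eif3b, Eif3c, Eif3e, Eif3h, Eif2s2, Eif2b5, Eif5a, Eif6 and Eif2ak3 lost, while the share of all probe sets called lower went from 24% to 14.5%. That setting was fitted with age alone in the model, here and below. At 1 week it kept only number 3 labelled female and number 1 labelled male. Without the 3 arrays with Alb above 2000 10 genes fell and 2 rose, with the calls of Eif3d, Eif3e, Eif3h, Eif2s2, Eif2b5, Eif5a and Eif6 lost and 15.4% of all probe sets called lower.

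**Figure D1:**
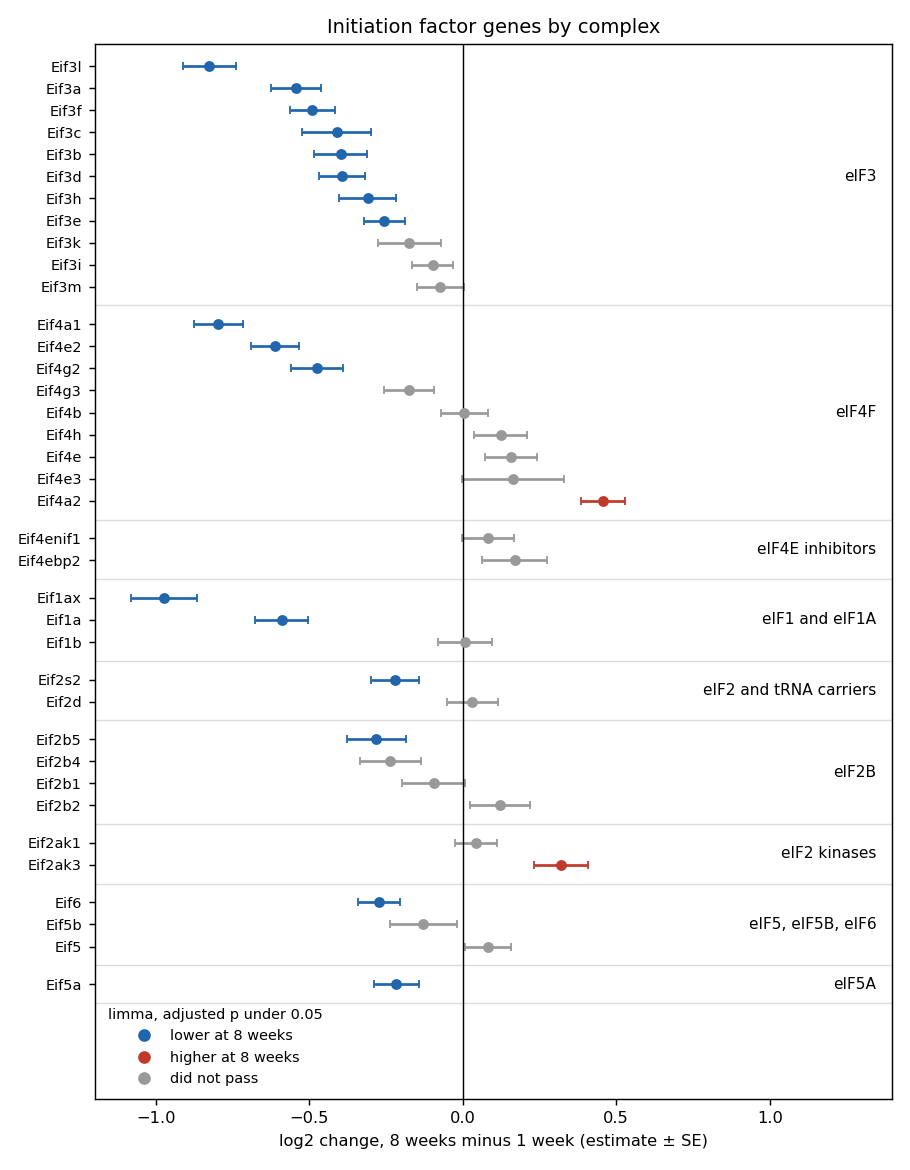
Change in each of the 37 tested initiation factor genes, grouped by complex, on a horizontal axis of log2 at 8 weeks minus 1 week; points are estimates from the limma fit, bars are SE, and colour gives the call. All 11 eIF3 genes lie left of 0 with quantile scaling, and Eif4a1 and Eif4a2 of eIF4F lie on opposite sides.

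RefSeq promoter sequence (GRCm38.p6) was matched by symbol for 32 of the 40 genes, with 45 start sites. Shown are the 250 bases before the start site of Eif4a1 and Eif4a2, the paralogs that moved in opposite directions, of Eif1ax, the gene with the largest fall, and of the 3 eIF3 genes with the largest falls, written 5′ to 3′ on the strand of the gene. Falls were ranked by the brightest probe set of each gene. Capitals mark matches on either strand to CACGTG (an E-box), CCGGAAG (an ETS core), GGGCGG (a GC box), CCAAT and TATAAA.
Eif4a1 (chr11:69672424-69672673, minus strand): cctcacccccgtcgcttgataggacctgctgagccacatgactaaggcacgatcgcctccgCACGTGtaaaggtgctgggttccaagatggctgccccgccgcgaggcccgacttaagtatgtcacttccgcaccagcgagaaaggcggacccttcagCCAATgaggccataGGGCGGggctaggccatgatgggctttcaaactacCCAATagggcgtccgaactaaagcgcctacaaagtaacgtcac
Eif4a2 (chr16:23107218-23107467, plus strand): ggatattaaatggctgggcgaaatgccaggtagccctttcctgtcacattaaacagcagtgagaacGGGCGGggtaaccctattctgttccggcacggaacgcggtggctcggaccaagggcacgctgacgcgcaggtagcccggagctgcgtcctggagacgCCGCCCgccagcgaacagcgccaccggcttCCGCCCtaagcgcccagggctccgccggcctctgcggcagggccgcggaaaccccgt
Eif1ax (chrX:159371928-159372177, plus strand): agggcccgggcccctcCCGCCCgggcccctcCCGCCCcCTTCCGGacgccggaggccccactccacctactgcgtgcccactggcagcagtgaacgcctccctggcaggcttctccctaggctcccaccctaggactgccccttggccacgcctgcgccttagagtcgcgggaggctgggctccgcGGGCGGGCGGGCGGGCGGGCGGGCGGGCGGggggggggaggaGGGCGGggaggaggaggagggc
Eif3l (chr15:79074973-79075222, plus strand): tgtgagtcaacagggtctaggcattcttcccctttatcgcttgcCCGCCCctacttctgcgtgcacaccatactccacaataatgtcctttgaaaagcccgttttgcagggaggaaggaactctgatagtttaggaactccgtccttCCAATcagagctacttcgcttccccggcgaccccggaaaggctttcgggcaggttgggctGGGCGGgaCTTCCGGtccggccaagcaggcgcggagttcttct
Eif3a (chr19:60790694-60790943, minus strand): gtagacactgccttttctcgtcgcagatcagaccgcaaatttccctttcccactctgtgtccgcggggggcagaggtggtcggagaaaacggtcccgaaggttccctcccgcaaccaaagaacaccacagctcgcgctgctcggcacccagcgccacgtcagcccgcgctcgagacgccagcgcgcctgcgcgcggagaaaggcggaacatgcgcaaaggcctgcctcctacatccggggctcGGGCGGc
Eif3f (chr7:108934165-108934414, plus strand): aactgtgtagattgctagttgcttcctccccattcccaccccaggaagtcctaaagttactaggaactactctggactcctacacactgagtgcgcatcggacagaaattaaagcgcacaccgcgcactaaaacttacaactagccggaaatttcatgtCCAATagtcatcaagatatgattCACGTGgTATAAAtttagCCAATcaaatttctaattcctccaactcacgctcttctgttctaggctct
The Eif4a1 window held 1 match to CACGTG, 1 to GGGCGG and 2 to CCAAT, and the Eif4a2 window 3 to GGGCGG and 0 to the others. In Eif1ax 10 matches to GGGCGG, some of which overlap each other, lay beside 1 to CCGGAAG. Eif3f alone among these 6 held TATAAA, and it held no GGGCGG. Over the family, GGGCGG was found in 28 of 45 windows (62.2%), CCGGAAG and CACGTG in 9 each, CCAAT in 12 (26.7%) and TATAAA in 2 (4.44%). Over all 32851 windows of the same length the shares were 32.7%, 6.91%, 6.02%, 33.8% and 12.4%. Several windows of 1 gene can overlap, and a match is a description of letters only.

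Genes of eIF3 subunits were mostly lower at 8 weeks with quantile scaling, a direction that turned on the deposited values in all but Eif3l and with spike-in scaling in Eif3i, Eif3k and Eif3m. Of 11 genes, 8 fell, 0 rose and 3 did not pass, or 72.7% lower beside 24% of all genes, and the median change was -0.39. Eif3l, a subunit of the outer rim of the complex, read from 727 to 911 at 1 week with a median of 802, and 423, 482, 461 and 405 at 8 weeks. All arrays at 8 weeks lay below all arrays at 1 week, and the adjusted p was 4.03e-05. Eif3a, the large subunit around which the complex is built, read from 1214 to 1483 with a median of 1405 at 1 week, and 889, 1003, 968 and 907 at 8 weeks (-0.54 ± 0.08, adjusted p = 4.08e-04). Eif3f read from 1868 to 2133 with a median of 1923 at 1 week, and 1254, 1390.2, 1422 and 1526 at 8 weeks (-0.49 ± 0.07, adjusted p = 4.01e-04). In both genes every array at 8 weeks lay below every array at 1 week.

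The other subunits that fell did so by 0.26 to 0.41 on the log2 scale, as read by their brightest probe sets. The smallest of these falls, that of Eif3e, was larger by its other 2 tested probe sets. They changed by -0.63 and -0.73 (limma, adjusted p = 1.21e-04 and 3.91e-04), so the rank of Eif3e among the subunits depends on the probe set. Eif3d, a subunit that can itself contact the cap, went from 806 ± 46.0 at 1 week to 608 ± 34.7 at 8 weeks, and Eif3e from 1695 ± 52.6 to 1416 ± 66.9 (SD, n = 6 and 4), both without overlap. Eif3b, which with Eif3a forms the core in yeast as in mammals, went from 682 ± 57.1 to 514 ± 83.3, and its ages overlapped, as number 2 labelled female at 8 weeks read 627 and number 3 labelled female at 1 week 571. Without the 4 arrays opposing their sex label Eif3e (adjusted p = 0.112) and Eif3b (adjusted p = 0.221) did not pass in limma, and without the 3 arrays high in Alb Eif3e (adjusted p = 0.0672) and Eif3d (adjusted p = 0.0519) did not. Eif3c (-0.41 ± 0.11, adjusted p = 0.0133) and Eif3h (-0.31 ± 0.09, adjusted p = 0.0203) overlapped too. Eif3c was not called without number 1 labelled female at 8 weeks (adjusted p = 0.064) or without number 2 labelled male at 8 weeks (adjusted p = 0.0604), and over its 10 single-array removals the adjusted p ran from 0.00685 to 0.064. Eif3h was not called without the same arrays (adjusted p = 0.0847 and 0.0893), with a range of 0.0144 to 0.0893. The 3 genes that did not pass were Eif3k (-0.17 ± 0.10), Eif3i (-0.10 ± 0.07) and Eif3m (-0.07 ± 0.08). Eif3k passed without number 1 labelled female at 1 week (adjusted p = 0.0313).

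**Figure D2:**
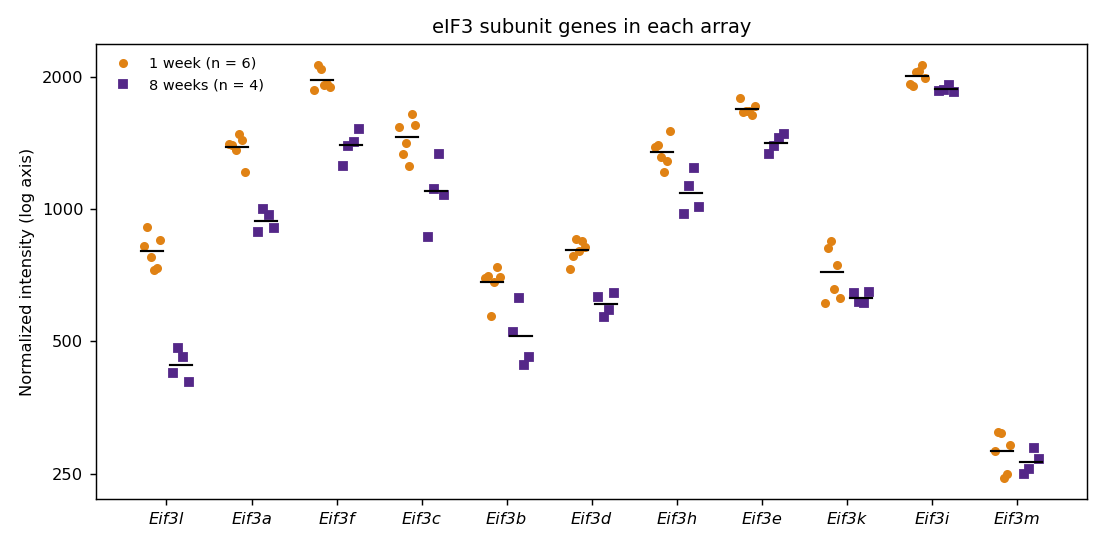
Normalized intensity of the 11 eIF3 subunit genes on a log axis, in each of 6 arrays at 1 week (circles) and 4 at 8 weeks (squares); black bars are means. The ages are apart in Eif3l, Eif3a, Eif3f, Eif3d and Eif3e, and overlap in the other 6 genes.

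The 11 genes were also summarised array by array. The median deviation of the 11 genes from their own means, in log2 units, ran from 0.0867 in number 1 labelled male at 1 week to 0.18 in number 2 labelled female at 1 week, and from -0.24 to -0.14 in the arrays at 8 weeks. The same median over the 8111 other genes stayed between -0.0102 and 0.0228 in every array. Quantile scaling gives every array the same distribution of intensities, so this median is largely held near 0 by construction. The eIF3 medians restate the changes above array by array and are not a further test. Of the 19 eIF3 probe sets tested, 14 fell, 5 did not pass and all 19 had an estimate below 0. Under the other scalings the eIF3 median moved with that of all probe sets and differed from it by -0.38 (quantile), -0.34 (median), -0.33 (spike-in) and -0.30 (deposited). Median and spike-in scaling multiply a whole array by 1 factor, which moves both medians nearly alike. These differences are therefore close to each other by construction and are not separate tests. The eIF3 median was -0.34 against 0.000750 with median scaling, -0.16 against 0.17 with spike-in scaling, and turned to 0.16 against 0.47 on the deposited values. In the last of these scales 3 eIF3 genes were called higher and 0 lower, beside 63.9% and 4.63% of all probe sets. With spike-in scaling 1 of the 11 was called lower, beside 8.65% of all probe sets, a count near that share. Without the 4 arrays that opposed their sex label 4 eIF3 genes fell, beside 14.5% of all probe sets. Without the 3 arrays high in Alb 5 fell, beside 15.4% of all probe sets.

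**Figure D3:**
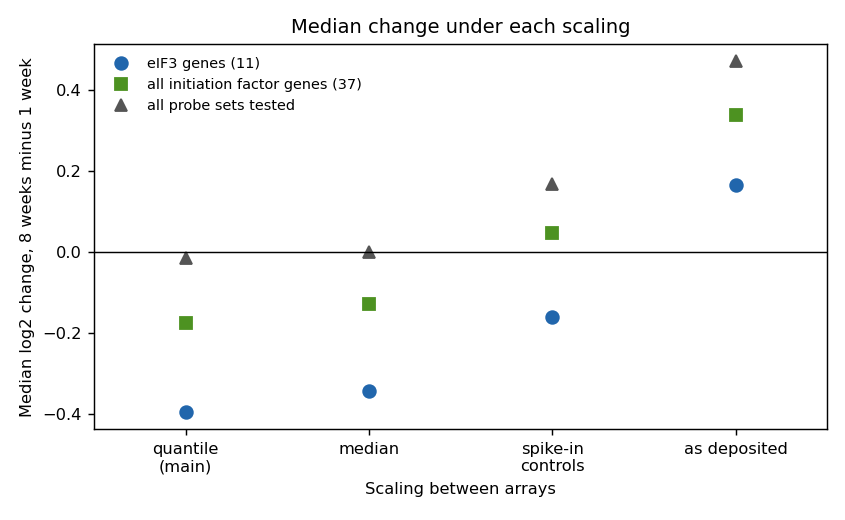
Median log2 change at 8 weeks minus 1 week under 4 scalings between arrays, for the 11 eIF3 genes (circles), the 37 initiation factor genes (squares) and all 13576 probe sets tested (triangles). The eIF3 median is the lowest of the 3 in each scaling, from -0.39 with quantile scaling to 0.16 on the deposited values. A scale factor of a whole array moves the 3 medians nearly alike, so their order is little moved by construction.

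Genes of the cap-binding factor eIF4F, its helpers and relatives of its subunits went both ways. Of 9 genes, 3 fell (33.3%, beside 24% of all genes), 1 rose (11.1%, beside 21.9%) and 5 did not pass. The falls were those of Eif4a1 and of the relatives Eif4e2 and Eif4g2. Eif4a1 and Eif4a2 encode close relatives of the same RNA helicase. Eif4a1 read from 1973 to 2385 at 1 week with a median of 2045, and 1236, 1119, 1261 and 1179 at 8 weeks. Eif4a2 read from 2576 to 3026 with a median of 2830.4 at 1 week, and 3946, 4148, 3726 and 3791 at 8 weeks. In neither gene did the ages overlap, and the changes were -0.80 ± 0.08 (adjusted p = 3.30e-05) and 0.46 ± 0.07 (adjusted p = 5.61e-04). The difference of log2 levels, Eif4a1 minus Eif4a2, was -0.43 ± 0.0965 at 1 week and -1.68 ± 0.13 at 8 weeks (SD, n = 6 and 4). It changed by -1.25, and every array at 8 weeks lay below every array at 1 week (two-sided exact permutation test, p = 0.00476, the smallest that 210 ways of choosing the arrays can give, adjusted p = 0.0119 over 5 paralog pairs). Since the ages were already apart in each gene, in opposite directions, this p followed from those values and is not further evidence. A difference within an array is by construction little moved by a scale factor of that array, while on the deposited values the fall of Eif4a1 itself did not pass (-0.27, adjusted p = 0.0828). All 3 Eif4a1 probe sets fell, by 0.32, 0.57 and 0.80 on the log2 scale, and Eif4a2 had 1 probe set.

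Among the cap-binding proteins, Eif4e2 fell and Eif4e did not pass. Eif4e2 encodes a cap-binding relative of eIF4E known to repress translation. It read from 416 to 495 with a median of 456 at 1 week, and 288, 295, 310.4 and 274 at 8 weeks (-0.61 ± 0.08, adjusted p = 1.43e-04), with no overlap. Eif4e, the cap-binding subunit of eIF4F, read from 804 to 949 with a median of 835 at 1 week, and 1048, 928, 988 and 885 at 8 weeks (0.16 ± 0.08, adjusted p = 0.16). The difference Eif4e minus Eif4e2 rose by 0.77 in log2 units (two-sided exact permutation p = 0.00476, adjusted p = 0.0119). This rested on the brightest Eif4e2 probe set, since the other 2 tested did not pass (-0.22 ± 0.13 and 0.15 ± 0.11). Eif4e3, another relative, read from 128 to 245 with a median of 166 at 1 week, and 212, 185, 220.2 and 170.4 at 8 weeks, and its difference from Eif4e changed by -0.00723 (exact permutation p = 0.981).

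Of the scaffold genes among the members, Eif4g2 fell and Eif4g3 did not pass. Eif4g2 encodes a relative of the eIF4G scaffold that lacks the binding site for eIF4E. It read from 2662 to 3020.5 with a median of 2847 at 1 week, and 1919, 2468, 1927 and 1881 at 8 weeks (-0.48 ± 0.08, adjusted p = 0.00116). The highest array at 8 weeks, number 2 labelled female, is also 1 of those high in Alb, and it still lay below all arrays at 1 week. All 3 tested Eif4g2 probe sets fell. Eif4g3, an eIF4G scaffold gene, went from 1007 ± 80.4 to 887 ± 28.6 and did not pass (-0.17 ± 0.08, adjusted p = 0.104), although its ages did not overlap, and it passed without number 1 labelled male at 1 week (adjusted p = 0.0443). The helicase cofactors Eif4b (0.0052 ± 0.08) and Eif4h (0.12 ± 0.09) did not pass, though a dimmer Eif4b probe set was called higher (0.34 ± 0.11, adjusted p = 0.0273).

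**Figure D4:**
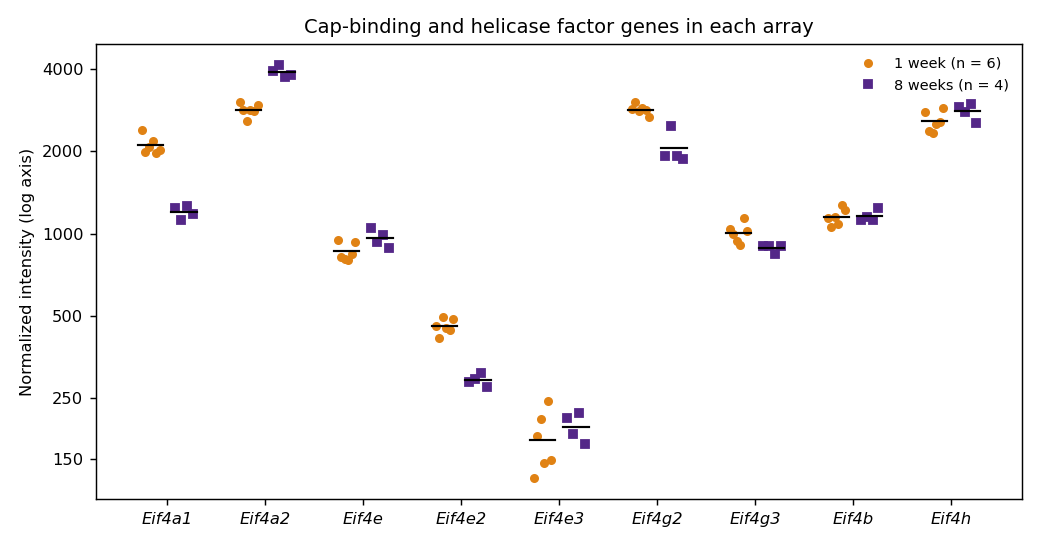
Normalized intensity of the 9 genes of eIF4F, its helpers and relatives on a log axis, in each of 6 arrays at 1 week (circles) and 4 at 8 weeks (squares); black bars are means. Eif4a1, Eif4e2 and Eif4g2 are lower and Eif4a2 is higher at 8 weeks without overlap of the ages, while Eif4e, Eif4e3, Eif4b and Eif4h overlap.

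The proteins that hold eIF4E back did not pass as read by their brightest probe sets. Eif4ebp2, the eIF4E-binding protein prominent in brain, was 274 ± 55.9 at 1 week and 309 ± 42.7 at 8 weeks (0.17 ± 0.11, adjusted p = 0.225). Its 4 tested probe sets did not give 1 answer, since another fell (-0.55 ± 0.08, adjusted p = 4.27e-04) while 2 more did not pass. Eif4enif1, which carries eIF4E into the nucleus, was 485 ± 43.9 and 513 ± 15.8. Eif4ebp1 read from 30.3 to 82.3 at 1 week and from 35.6 to 49.0 at 8 weeks, too dim to test.

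Of the scanning factors, both eIF1A genes fell and Eif1b did not pass. Eif1ax, the X-linked eIF1A gene, read from 547 to 828 with a median of 679.7 at 1 week, and 299.6, 376, 329 and 343 at 8 weeks (adjusted p = 6.03e-05). Eif1a, its autosomal copy, read from 189.6 to 258 with a median of 230.4 at 1 week, and 146, 127, 146 and 146 at 8 weeks (-0.59 ± 0.09, adjusted p = 3.48e-04). In both genes the ages were apart. The difference Eif1a minus Eif1ax changed by 0.38 (two-sided exact permutation p = 0.00952, adjusted p = 0.0159), so the fall was larger in the X-linked gene as read by these probe sets. Each gene also had a dimmer probe set that did not pass, at -0.15 ± 0.09 for Eif1ax and -0.21 ± 0.08 for Eif1a. The 2 genes are near copies and the Eif1a probe set is of a kind that can match more than 1 transcript, so the split of signal between them is uncertain. Eif1b was 1005 ± 70.9 at 1 week and 1009.9 ± 85.2 at 8 weeks (0.0067 ± 0.09, adjusted p = 0.957).

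In the eIF2 branch, Eif2s2 and Eif2b5 fell as read by their brightest probe sets. Eif2s2, the beta subunit of eIF2, read from 1160.3 to 1308 with a median of 1208 at 1 week, and 936, 1133, 1107 and 1001 at 8 weeks (-0.22 ± 0.08, adjusted p = 0.0416). The ages did not overlap, but the call of this probe set was lost when any of 8 arrays was left out and was kept without number 2 labelled female or number 1 labelled male at 8 weeks (adjusted p from 0.0214 to 0.177). The other 4 Eif2s2 probe sets tested fell by 0.30, 0.40, 0.65 and 0.99, with adjusted p from 1.17e-05 to 0.0124, and the mean of all 5 fell by 0.51 (adjusted p = 3.31e-04). Eif2d, which can deliver tRNA without eIF2, was 122 ± 11.2 and 125 ± 13.2. Of the 4 eIF2B subunit genes among the members, Eif2b5, the catalytic subunit, fell, or 25% beside 24% of all genes. It read from 358 to 469.8 with a median of 399.8 at 1 week, and 367, 298, 312 and 327 at 8 weeks, with overlap (-0.28 ± 0.10, adjusted p = 0.0362). Its call was lost without any of 6 arrays, which at 1 week were females 2 and 3 and male 2 by label, and at 8 weeks female 2 and both males by label (adjusted p from 0.0275 to 0.147 over the 10 removals). Eif2b4 (-0.24 ± 0.10, adjusted p = 0.0771), Eif2b1 (-0.09 ± 0.10) and Eif2b2 (0.12 ± 0.10) did not pass. Eif2b4 passed without number 1 labelled male at 1 week (adjusted p = 0.0323).

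Of the eIF2 kinases, Eif2ak3, which senses unfolded protein in the endoplasmic reticulum and is also called PERK, rose. It read from 207 to 273 with a median of 243 at 1 week, and 284, 302, 318 and 319 at 8 weeks, without overlap (adjusted p = 0.0124). Without the 4 arrays that opposed their sex label the change was 0.29 and did not pass (adjusted p = 0.0721). Eif2ak1, the kinase that senses heme, read from 289 to 369.8 with a median of 332 at 1 week, and 326, 346, 340.1 and 361 at 8 weeks (adjusted p = 0.653). The difference Eif2ak1 minus Eif2ak3 fell by 0.28 (two-sided exact permutation p = 0.0143, adjusted p = 0.0179), with adjusted p = 0.0595 without any of 7 arrays, which at 1 week were female 1 and males 1 and 2 by label, and at 8 weeks all 4. Eif2ak2, the kinase that senses double-stranded RNA, was 59.9 ± 5.86 and 56.4 ± 5.78, and Eif2ak4, which senses amino acid lack, 28.9 ± 3.51 and 29.3 ± 5.60, both too dim to test.

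Of the late-acting factors, Eif6, which keeps the large ribosomal subunit apart until it is mature, fell from 549 ± 23.9 to 451 ± 34.9 (-0.27 ± 0.07, adjusted p = 0.00853). It did not pass in limma without the 4 arrays opposing their sex label (adjusted p = 0.0942), without the 3 arrays high in Alb (adjusted p = 0.0616) or with spike-in scaling (adjusted p = 0.801). Its arrays read from 518 to 573 with a median of 552 at 1 week, and 409, 437, 475 and 485 at 8 weeks. Eif5, which triggers GTP hydrolysis by eIF2, was 1565 ± 57.5 and 1659.7 ± 121 and did not pass (0.08 ± 0.08), though 1 of its 4 probe sets was called higher (0.33 ± 0.09, adjusted p = 0.0135). Eif5b, the factor for subunit joining, was 174 ± 25.7 and 157 ± 21.5 (-0.13 ± 0.11, adjusted p = 0.367). Eif5a, named as an initiation factor but known to act in elongation, read from 2870.2 to 3082 with a median of 3043 at 1 week, and 2901, 2452, 2437 and 2613 at 8 weeks. It fell by 0.22 (adjusted p = 0.0363) with 1 array of overlap, number 1 labelled female at 8 weeks, and its call was lost without any of 8 arrays and kept without number 2 labelled male at 1 week or number 1 labelled female at 8 weeks (adjusted p from 0.021 to 0.153).

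Where a gene had several probe sets, those that were called went in 1 direction only. Of 21 genes with more than 1 tested probe set, 0 had probe sets called in opposite directions. In 14 all probe sets gave the same result. All were lower for Eif2s2, Eif3a, Eif3e, Eif4a1, Eif4g2 and Eif5a. No probe set passed for Eif2ak1, Eif2b2, Eif2d, Eif3i, Eif4e, Eif4e3, Eif4h and Eif5b, which is not agreement on a change. The Eif2b2 estimates ran from -0.11 to 0.12. In the remaining 7 a called probe set stood beside 1 or more that did not pass. These were Eif1a, Eif1ax, Eif3c, Eif4b, Eif4e2, Eif4ebp2 and Eif5. Among the probe sets of the family, 15 were of the array's x_at class and 5 of its s_at class, both of which can match related transcripts. The spread between replicates was modest, with a median residual SD of 0.11 in log2 units over the 37 genes and 0.15 over all genes.

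**Figure D5:**
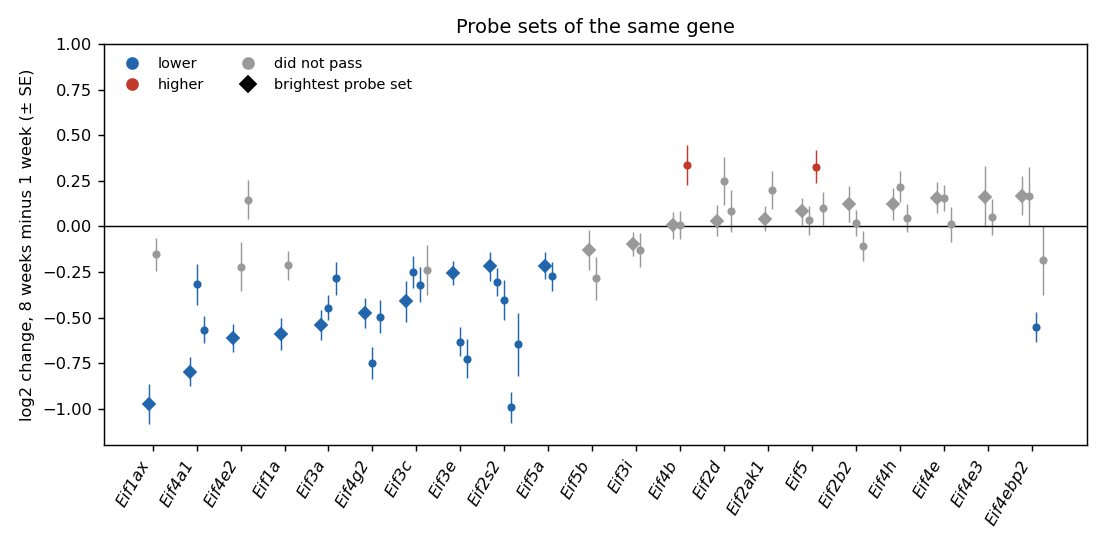
Log2 change at 8 weeks minus 1 week, with SE, for every tested probe set of the 21 genes that had more than 1; diamonds mark the brightest probe set, which stands for the gene. Eif2s2, Eif3a, Eif3e, Eif4a1, Eif4g2 and Eif5a are lower by all their probe sets, while Eif1a, Eif1ax and Eif4e2 are called lower by the brightest alone.

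Other genes of the pathway were taken from a list of 44 symbols, some of them older names. The 35 found on the array were all tested. Of these, 8 rose, 6 fell and 21 did not pass, where 21.9% and 24% of all genes were called higher and lower. These counts lie near those shares. The median change was 0.0372. Pabpc1, the poly(A)-binding protein that joins the tail of the messenger to eIF4G, read from 2759 to 3074 with a median of 2931 at 1 week, and 1426, 1325, 1321 and 1445 at 8 weeks (-1.07 ± 0.07, adjusted p = 2.52e-06). Its relative Pabpc4 fell by 0.70, Etf1, the release factor of termination, by 0.43 and the kinase gene Akt1 by 0.39. Impact, an inhibitor of the eIF2 kinase Eif2ak4, rose from 541 ± 105 to 1326 ± 194 (1.26 ± 0.14, adjusted p = 4.80e-05). Cyfip2, of the family that links FMRP to eIF4E and actin, rose by 1.01 ± 0.10, Upf2, of nonsense-mediated decay, by 0.79 ± 0.08, and Ddit3, a stress-response transcription factor gene, by 0.68 ± 0.15. By group, 3 of 16 genes around eIF4E, eIF4G and TOR rose and 3 fell, 4 of 7 genes of eIF2 control rose and 0 fell, 0 of 8 genes of recycling and release rose and 3 fell, and 1 of 4 partners of the exon junction rose. On the deposited values 27 were called higher and 1 lower, beside 63.9% and 4.63% of all probe sets.

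The labels name sex as the other factor. For male minus female labels over both ages, 0 of 77 probe sets of the family passed in limma and 1 had an unadjusted p under 0.05. For the interaction of age and label 0 of 77 passed and 4 had an unadjusted p under 0.05. Over all 13576 probe sets the calls were 0 and 0 as well, 0% each, with 469 and 759 at an unadjusted p under 0.05. Since 4 arrays at 1 week opposed their label on sex chromosome transcripts, these counts concern the labels.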

How the data were processed

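The deposited table held 1 intensity per probe set and array on a linear scale for 22690 probe sets, in the unit the authors deposited. The software by which the authors summarised the probes is not given in the sources used here. Detection calls were not part of the table. Removal of 64 control probe sets left 22626, of which 20380 carried 1 symbol, 691 several and 1555 none in the platform annotation. Arrays had trimmed means (2% from each tail) from 139 to 237 at 1 week and from 256 to 319 at 8 weeks. Brightness of the deposited arrays and age can therefore not be told apart. The arrays were quantile-normalized, which removes this difference. A pseudocount of 24, the 20th percentile of the deposited intensities, was added before log2. The dimmest probe sets, those whose log2 values averaged less than the 40th percentile, were not tested. The 1-coefficient-per-group model was fitted in R 4.3.3 with limma 3.58.1 over all 13576 probe sets, and p-values were two-sided and Benjamini-Hochberg adjusted, with a threshold of 0.05. A gene was read by its brightest probe set. The number of arrays limits the precision. In simulated data of 22626 probe sets, 100 were changed with age by 0.5 in log2 units and another 100 by 1. The fit found 65% of the former and 92% of the latter, with 10 false among 167 calls. In the real data 46% of the probe sets tested were called, so these rates need not hold there.

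Genes given array by array were up to 3 called genes per complex and direction with the largest changes and both genes of each paralog pair tested, and up to 4 other translation genes were named per direction. The members and lists were chosen with earlier results of these data known. Alternatives were other scalings, pseudocounts and filters, the mean of a gene's probe sets, age alone, arrays left out, a replicate block, array weights, an intensity trend and a 1.5-fold minimum. Leaving out the 4 arrays that opposed their sex label was done with age alone in the model. Leaving out the arrays high in Alb was added after seeing the data.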

Additional observations from a re-analysis of the deposited data

Results flagged for a closer look

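Within an age, 84 sets of values of a gene or a paralog difference were examined for an array far from the others, a test that chance meets in about 1 of 20 sets, and 5 met it. At 8 weeks Eif4g2 read 2468 in number 2 labelled female and 1881 to 1927 in the other 3 arrays. In the same array Eif1a read 127, beside 146 in each of the other 3. At 8 weeks Eif4g3 read 844 in number 1 labelled male and 898 to 904 in the others. At 1 week Eif3b read 571 in number 3 labelled female and 682 to 738 in the other 5 arrays. The difference Eif4e minus Eif4e2 at 8 weeks was 1.78 in number 1 labelled female and 1.58 to 1.61 in the others, in log2 units.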

How the results depend on the processing

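On the deposited values without scaling between arrays, 18 genes of the family were called higher and 1 lower, 37 probe sets higher and 2 lower, 8673 of all probe sets higher and 629 lower, and 27 other translation genes higher and 1 lower. On that scale 19 genes changed sign, with log2 changes of 0.0034 (Eif3a), 0.013 (Eif4g2), 0.053 (Eif3f), 0.14 (Eif3b), 0.15 (Eif3c), 0.16 (Eif3d), 0.24 (Eif3h), 0.24 (Eif2b5), 0.24 (Eif5a), 0.26 (Eif6), 0.29 (Eif3e), 0.29 (Eif2b4), 0.32 (Eif2s2), 0.34 (Eif5b), 0.38 (Eif3k), 0.39 (Eif4g3), 0.43 (Eif3m), 0.43 (Eif2b1) and 0.44 (Eif3i), beside a median of 0.47 over all probe sets. With spike-in scaling 3 genes, 8 probe sets, 2 other translation genes and 1175 of all probe sets were lower, and 6 genes changed sign without passing, at 0.047 (Eif5b), 0.053 (Eif3k), 0.056 (Eif4g3), 0.11 (Eif3i), 0.11 (Eif2b1) and 0.12 (Eif3m). Without the 4 arrays opposing their label 1 gene was higher and 9 lower, 2 probe sets higher and 19 lower, 3 other translation genes lower and 1973 of all probe sets lower, and Eif4e minus Eif4e2 changed by 0.89. Without the 3 arrays high in Alb 10 genes were lower, 2 probe sets higher, 5 other translation genes higher, and 1917 of all probe sets higher and 2085 lower. With at least a 1.5-fold change 0 genes were higher and 5 lower, and the share of all probe sets at that size was not counted. Apart from the fewer arrays or the stricter threshold that some of these settings have by construction, the cause was not tested. Changes near 0 that did not pass also changed sign, Eif4ebp2 to -0.10 with the mean of its probe sets, Eif2d to -0.013 without the 4 arrays, Eif1b to -0.027 without the arrays high in Alb and -0.015 with array weights, and Eif4e minus Eif4e3 to 0.072 as deposited, 0.019 with median scaling, 0.041 with spike-in scaling and 0.016 with a pseudocount of 64. Leaving out 1 array at a time, Eif4b ran from -0.030 to 0.040, Eif1b from -0.066 to 0.080, Eif2d from -0.035 to 0.097 and Eif4e minus Eif4e3 from -0.10 to 0.094. The same removals gave 12 to 17 genes lower and 2 higher, and a change of Eif2ak1 minus Eif2ak3 from -0.33 to -0.21. Over these removals 20.1% to 23% of all probe sets were called lower and 18.3% to 21.6% higher. Median scaling ended the calls of Eif3h (adjusted p = 0.0761) and Eif2s2 (adjusted p = 0.13), and no filter those of Eif2s2, Eif2b5 and Eif5a, in limma.

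Arrays that shared a replicate number across groups were somewhat more alike than arrays with different numbers. Over 13 same-numbered pairs the deviations correlated at a median of 0.098 (range -0.0251 to 0.19), with 5 pairs over 0.1. Over 24 pairs with different numbers the median was -0.0597. Of 10 arrays, 8 correlated best with their own number in another group. What the replicate number stands for is not given in the labels and was not tested. With the replicate number as a block, 13 genes of the family were lower and 2 higher, and 26 probe sets lower and 4 higher. Of all probe sets, 22.5% were then called lower and 21% higher. The block ended the calls of Eif3h (adjusted p = 0.0708), Eif2s2 (adjusted p = 0.106), Eif2b5 (adjusted p = 0.0789) and Eif5a (adjusted p = 0.0946) in limma, and turned Eif1b to -0.030.

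Signal limits the rest: the dimmest tested probe set of the family averaged 90.8 and the brightest left out 58.5, so 3 genes have no test. The calls of Eif2b5, Eif5a and the brightest Eif2s2 probe set lay near the threshold.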
